A study of Rattus norvegicus with 5 samples.

Results

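Interleukin 1 beta (Il1b), an inflammatory cytokine, and its decoy receptor Il1r2 were followed in blood cells of rats, sorted to enrich myeloid-derived suppressor cells (MDSCs), immature myeloid cells that can restrain T cells. The genes were found as the probes whose single gene symbol in the platform annotation is Il1b or Il1r2: 1 probe each, 2 of the 26856 probes with a signal on every array, of which 6104 carry 1 symbol. Both passed the filter on low signals that is described below. The pair was selected on its measured difference between tolerant and syngeneic arrays, so that difference is described here without a test and supports no further statement.

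All recipients were LEW.1A rats sampled at day 100 after kidney transplantation. The 3 tolerant samples came from recipients of an MHC-mismatched LEW.1W kidney in which tolerance had been induced with the antibody JJ319, which binds CD28, a costimulatory receptor of T cells. The 2 syngeneic samples came from recipients of a LEW.1A kidney, for which the labels name no antibody; the series' design text counts 3 recipients per group. Grafted LEW.1W kidneys were 8 to 12 weeks old, no age is given for the recipients, and both native kidneys were removed 7 days after the life-sustaining allografts. After red cell lysis, MHC class II and CD3 positive cells were depleted in both groups and cells stained for CD80 or CD86 were kept, so each sample is a magnetic enrichment of mixed cells rather than a single type. No label ties an array to 1 animal, and the spread behind each p-value, that between samples of a group, may therefore be technical.

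IL-1 beta is made as an inactive precursor by activated monocytes, macrophages and neutrophils, and caspase-1 in the inflammasome cuts it to the secreted form. The secreted cytokine binds the receptor Il1r1, which recruits the accessory chain Il1rap and signals through Myd88 to NF-kB. Il1r2 binds the same ligand but lacks the intracellular signalling domain, so it acts as a decoy on the cell surface or after shedding, and it is known for its expression on neutrophils and monocytes. Glucocorticoids and IL-4 are known to induce it.

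The values are the authors' quantile-normalised log2 signals, and each array has a median of 9.41. Median raw signals were 563 to 758 on the tolerant arrays and 676 to 798 on the syngeneic arrays. A background level was set on each array from 464 probes for olfactory receptors, which blood cells should not express, as their 95th percentile. It lay between 10.71 and 11.20 on tolerant arrays and between 10.73 and 10.80 on syngeneic arrays. Syngeneic 2 stood apart: its correlation with any other array was 0.829 to 0.853, whereas pairs among those 4 gave 0.882 to 0.917. Values without it are given where a log2 difference changed by over 1.5 times or turned its sign. Where only some arrays of a group exceeded background, a difference is partly measured against background. Some myeloid genes were present in all samples, with Lyz2 (lysozyme) and Cd14, a coreceptor for lipopolysaccharide, above background on all 5 arrays. Others were at background on syngeneic 2 but above it on the other 4 arrays. Among these were the myeloid integrin Itgam and the genes Cybb, Ccr2 and Cebpa.

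Il1b was well above background in every sample and was lower in all tolerant samples than in either syngeneic sample. Its log2 signal was 16.45, 15.00 and 15.39 in tolerant samples 1, 2 and 3, against 17.17 and 18.95 in syngeneic samples 1 and 2. The corresponding raw intensities before normalization were 48596, 30628 and 49290 in tolerant samples, and 169870 and 707480 in syngeneic samples. The groups did not overlap, but tolerant 1 lay only 0.72 on the log2 scale below syngeneic 1. The mean was 15.61 ± 0.75 (SD, n = 3) in tolerant cells and 18.06 ± 1.26 (SD, n = 2) in syngeneic cells. The difference was -2.45 (SE 0.71 in the limma fit), or 5.45-fold lower. The syngeneic samples differed from each other by 1.79 and the tolerant samples spanned 1.45, so the spread within groups was a large part of the difference between them. Without syngeneic 2 the difference was -1.55, and without syngeneic 1 it was -3.34. In a bulk sample, fewer Il1b-expressing cells and less Il1b RNA per cell cannot be told apart.

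Il1r2 was at background in all tolerant samples and above it in both syngeneic samples. Its log2 signal was 9.80, 8.56 and 8.67 in tolerant samples 1, 2 and 3, against 11.50 and 13.95 in syngeneic samples 1 and 2. The groups did not overlap, and the gap between tolerant 1 and syngeneic 1 was 1.70. Relative to each array's own background level, Il1r2 stood at -1.40, -2.15 and -2.03 in tolerant samples, whereas it stood at only 0.78 in syngeneic 1 and at 3.15 in syngeneic 2. The mean was 9.01 ± 0.68 (SD, n = 3) in tolerant cells and 12.73 ± 1.73 (SD, n = 2) in syngeneic cells. Because the tolerant signal was at background, the measured statement is a lower bound. Tolerant cells had at least 3.61-fold lower Il1r2 signal, with any tolerant signal under background set to the background level of its array. Without syngeneic 2 the bound was 1.54-fold, and with syngeneic 2 as the only syngeneic sample it was 8.44-fold. The fitted difference of -3.71 (SE 0.82) measures no more than that bound.

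**Figure D1:**
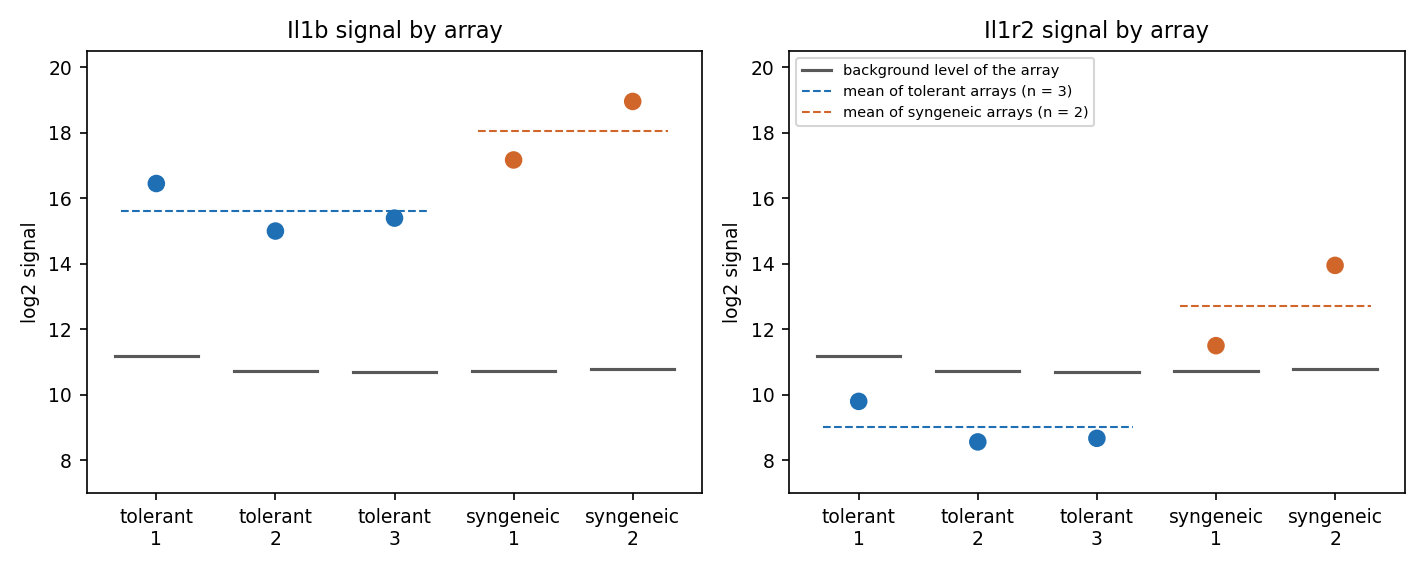
Log2 signal (vertical axis) of Il1b (left) and Il1r2 (right) on each array (horizontal axis), with tolerant arrays in blue and syngeneic arrays in orange. Dashed lines are group means and grey bars the background level of each array; Il1b lies above background everywhere, at 15.00 to 16.45 in tolerant and 17.17 to 18.95 in syngeneic samples, whereas Il1r2 clears it only in the syngeneic samples.

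In the normalised values both genes ranked the 5 samples in the same order: syngeneic 2 highest, then syngeneic 1, tolerant 1, tolerant 3 and tolerant 2. By raw intensity the 2 genes differed: tolerant 3 was just above tolerant 1 for Il1b (49290 against 48596) but below it for Il1r2 (471 against 699). Across the 5 samples their log2 signals correlated at 0.99 (Pearson's r, n = 5, given as a description), and at 0.97 without syngeneic 2, although the tolerant values of Il1r2 are background signals. The step from syngeneic 1 up to syngeneic 2 was 3.45-fold for Il1b and 5.46-fold for Il1r2. The order of samples in the normalised values was shared by 150 of the 13428 probes tested, or 1.12%. A tolerant group lying wholly below both syngeneic samples was more common still, at 1399 probes or 10.4%, and 1308 probes (9.74%) lay wholly above. Being at background on all tolerant arrays and above it on both syngeneic arrays, as Il1r2 was, applied to 190 probes (1.41%).

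For all probes with a mean at or above the median of 9.40, limma compared tolerant with syngeneic samples. At a Benjamini-Hochberg adjusted p of 0.05, 6 of 13428 probes passed (0.0447%), all of them lower in tolerant cells. Of all tested probes, 49.7% were lower in tolerant cells by any amount. Neither Il1b nor Il1r2 was among the 6. Ordered from the most negative difference, Il1r2 stood at position 47 and Il1b at position 122. The choice of the pair used this contrast, so these positions are a description.

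The direction of both differences held under all 11 alternatives tried for each gene, but several of these could not have turned it. The groups did not overlap, so leaving out 1 sample kept the sign by construction. For the same reason, pairing samples by replicate number and changing or dropping the floor on low signals could not turn it. A renewed quantile normalization of the intensities only repeated the deposited values. Only scaling to a common median and leaving normalization out could have turned the sign. Il1b ranged from -3.34 to -1.55 and Il1r2 from -4.94 to -2.49, with both ends of each range set by leaving out 1 syngeneic sample. Leaving out a tolerant sample gave -2.86 to -2.14 for Il1b and -4.11 to -3.49 for Il1r2. With arrays scaled to a common median in place of quantile normalization, Il1b differed by -2.84 and Il1r2 by -3.92, while the median of all tested probes stood at -0.16. Relative to that median the differences were -2.68 and -3.76. The dependence on the 2 syngeneic samples was thus greater than that on any normalization tried.

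**Figure D2:**
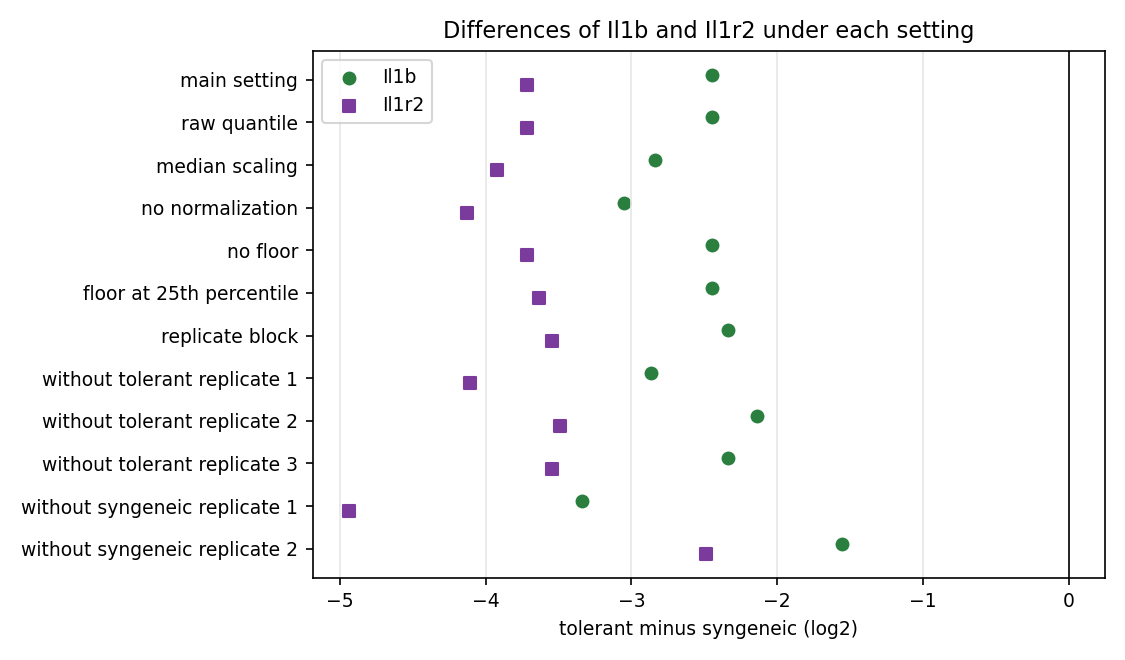
Tolerant minus syngeneic difference on the log2 scale (horizontal axis) of Il1b (green circles) and Il1r2 (purple squares) under the main setting and 11 alternatives (vertical axis). All points lie left of 0; the points nearest to 0 are those without syngeneic 2, at -1.55 and -2.49.

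The bases upstream of Il1b are shown because the probe was bright in every sample and because binding sites for its known regulators can be looked for there. The sequence is the 250 bases before the annotated start on the minus strand, from RefSeq on build GRCr8 (chr3:137036582-137036831), written 5′ to 3′. Capitals mark a C/EBP match and a TATA box.
Il1b: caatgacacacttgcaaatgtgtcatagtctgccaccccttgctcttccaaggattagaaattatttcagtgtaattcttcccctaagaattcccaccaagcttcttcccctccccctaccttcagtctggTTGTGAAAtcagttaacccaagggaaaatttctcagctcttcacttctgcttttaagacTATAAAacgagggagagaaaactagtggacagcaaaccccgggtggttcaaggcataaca
Searched on both strands, the C/EBP letters TTNNGNAA matched once, from 119 to 112 bases before the start, and the TATA box TATAAA once, from 60 to 55 bases before it; the matches do not overlap. The C/EBP letters occur in 37.2% of 33469 such upstream windows of the rat genome and TATAAA in 12.9%, so the first match is common. An NF-kB pattern (GGG and CC with 5 free bases between, in 42.3% of windows) and the letters GAGGAA (PU.1, 23.3%), TGTTCT (glucocorticoid receptor, 17.5%) and TGANTCA (AP-1, 6.34%) are not in this window. The gene Cebpb, which encodes C/EBP beta, was bright on every array. It averaged 17.57 ± 0.31 (SD, n = 3) in tolerant cells and 17.04 ± 0.46 (SD, n = 2) in syngeneic cells. Its difference of 0.54 (0.21 without syngeneic 2) did not pass (limma, adjusted p = 0.907) and turned to -0.01 without normalization. Spi1, the gene of PU.1, was at 14.42, 13.53 and 14.23 in tolerant samples, and at 14.22 and 10.20 in syngeneic samples. Its difference was 1.85 with all arrays and -0.16 without syngeneic 2, where it was at background. Cebpb and Spi1 were named outside the rule for named genes, after their values were seen.

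With all arrays included, the other genes of the pathway had no common direction. Of 156 further genes listed for ligands, receptors, processing, signalling, targets and regulators, 82 have a named probe and 57 were tested. Of these 57, 28 were lower and 29 higher in tolerant cells, and their median difference was 0.0032 beside 0.0038 for all tested probes. None passed in either direction (limma; 0 also with trended, robust variances), and 7 had an unadjusted p under 0.05 (9 with the latter), 6 of them lower and 1 higher; over all probes that share was 5.37%, with 3.38% lower and 1.99% higher. Tolerant samples lay wholly below syngeneic samples for 8 of the 57 and wholly above for 6, shares to be read against 10.4% and 9.74% of all probes. The median depended on syngeneic 2: it was -0.42 without that sample and 0.31 without syngeneic 1.

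Among the ligands and antagonists, Il1a, the sister cytokine encoded beside Il1b, was at background on all 5 arrays and below the filter. Il18, another cytokine cut by caspase-1, was at 11.28 ± 0.63 (SD, n = 3) in tolerant cells and 11.65 ± 0.80 (SD, n = 2) in syngeneic cells. It differed by -0.37 (SE 0.58; -0.94 without syngeneic 2 and 0.20 without syngeneic 1). Its binding protein Il18bp, above background on 1 tolerant and 1 syngeneic array, differed by 0.11 (SE 0.91), and by -0.86 without syngeneic 2. Neither was separated between the groups. Il1rn, the receptor antagonist, was not analysed here.

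Of the receptors with a named probe, only Il1r2 exceeded background on both syngeneic arrays. The signalling receptor Il1r1 was at background on all 5 arrays, as were Il1rl2, Il18rap and Il1rapl1 of the same family. Il1rap, the accessory chain that signalling requires, was at 9.20, 10.17 and 9.97 in tolerant samples, and at 11.47 and 10.74 in syngeneic samples. It cleared background on syngeneic 1 alone, which bounds it at least 1.17-fold lower in tolerant cells (fitted difference -1.33, SE 0.50, adjusted p = 0.897). Unlike Il1b and Il1r2, Il1rap was higher in syngeneic 1 than in syngeneic 2.

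Of 21 genes listed for the machinery that cuts the precursor, 9 have a named probe, and Nlrp3 is not among them. P2rx7 was at background on all arrays, and the other 8 were above background on at least 1 array of each group. Among 8 tested genes, 2 had lower and 6 higher means, and the median of 0.61 was -0.10 without syngeneic 2. Pycard (ASC), the adaptor of the inflammasome, was at 16.38 ± 0.36 (SD, n = 3) in tolerant cells and 16.63 ± 0.25 (SD, n = 2) in syngeneic cells. It differed by -0.25 (SE 0.43; -0.42 without syngeneic 2). Casp1 was at 13.64, 13.70 and 14.44 in tolerant samples, and at 14.51 and 11.37 in syngeneic samples. The syngeneic samples thus lay on either side of the tolerant ones, and the difference was 0.99 with all arrays and -0.58 without syngeneic 2. Txnip, which can bind NLRP3, behaved likewise, at 14.61, 14.76 and 14.93 in tolerant samples, and at 15.18 and 10.47 in syngeneic samples. Its difference was 1.94, and -0.42 without syngeneic 2, where it was at background. The remaining differences, each followed by the value without syngeneic 2, were those of Casp4 (0.20; 0.07), Casp8 (0.90; -0.28), Mefv (0.71; 1.32), Panx1 (-0.30; 0.20) and the lysosomal protease Ctsb (0.50; 0.46). Casp4 is given by its brighter probe, and its sign turned under median scaling, at -0.11.

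For signalling downstream of the receptor, 6 genes were tested, 5 lower and 1 higher, and their median was -0.27. Myd88, the adaptor of IL-1 and toll-like receptors, differed by -0.71 (SE 0.47) and the kinase Map2k6 by -0.82 (SE 0.49), each with an adjusted p of 0.907. Without syngeneic 2 they were at -0.26 and -0.42. Among 18 tested IL-1 and NF-kB targets, 9 were lower and 9 higher, and their median was -0.07 (-0.72 without syngeneic 2 and 0.41 without syngeneic 1). The smallest p belonged to Ier3, an early response gene, at 8.97, 8.43 and 8.74 in tolerant samples, all background, and at 11.45 and 12.71 in syngeneic samples. It was at least 2.31-fold lower (adjusted p = 0.257). Nos2, the inducible nitric oxide synthase, was at 12.05, 8.44 and 9.56 in tolerant samples, and at 12.68 and 14.58 in syngeneic samples, a difference of -3.62 (SE 1.14, adjusted p = 0.821). Only tolerant 1 of the tolerant samples exceeded background for Nos2. Ier3 and Nos2 had the same order of samples as Il1b and Il1r2. Of 30 targets with a named probe, 14 were at background on all 5 arrays, among them Il6, Tnf and Ptgs2. Others, such as Ccl3, Ccl4, Icam1 and Nfkb2, were above background on all 5 arrays.

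**Figure D3:**
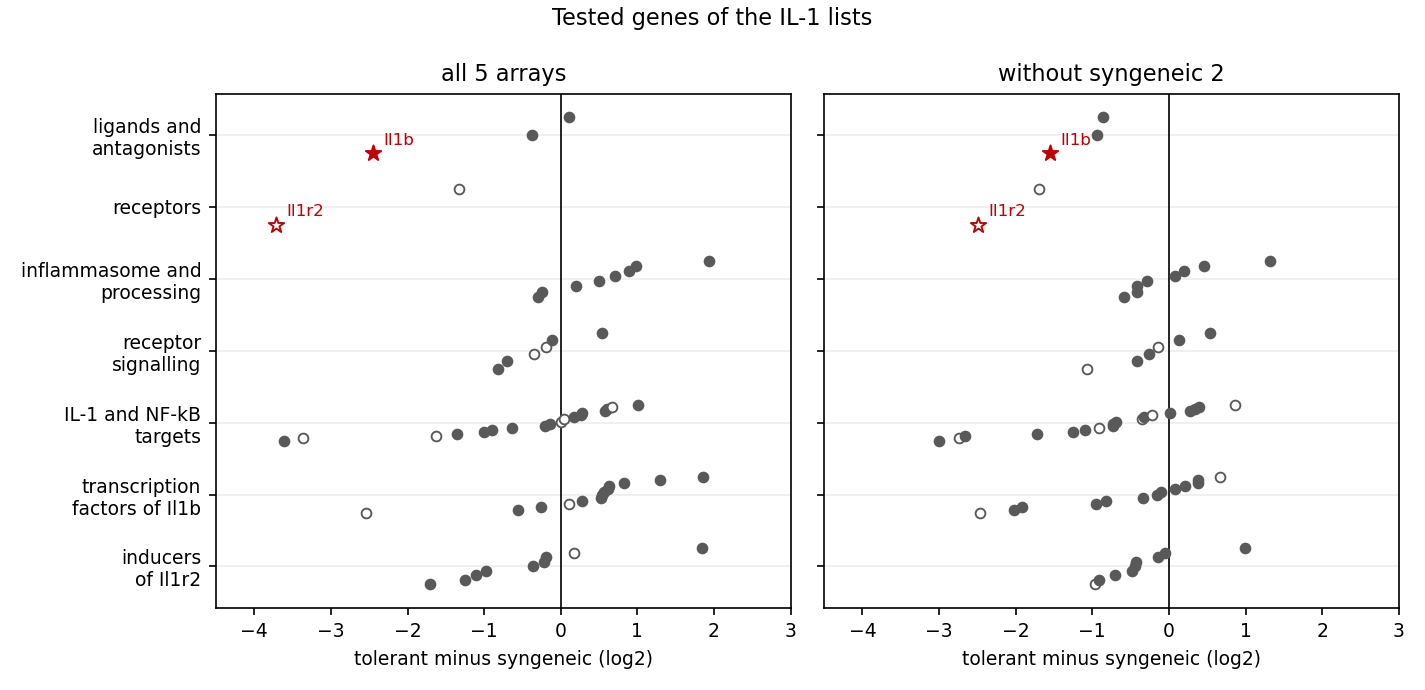
Tolerant minus syngeneic difference on the log2 scale (horizontal axis) of each tested gene in the IL-1 lists (rows), with all 5 arrays (left) and without syngeneic 2 (right). Stars are Il1b and Il1r2, and open symbols are genes at background on every array of at least 1 group. The other genes lie on both sides of 0, with medians of 0.0032 on the left and -0.42 on the right.

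Genes listed as regulators of the pair, or for the pathways that induce Il1r2, gave no common direction. Of 13 tested transcription factors known to act on Il1b or in myeloid cells, 3 were lower and 10 higher, and their median was 0.54 (-0.16 without syngeneic 2). Gfi1, a repressor of granulocyte development genes, was at 9.14, 10.20 and 10.56 in tolerant samples, all background, and at 12.43 and 12.58 in syngeneic samples, at least 3.10-fold lower (adjusted p = 0.446), whereas Runx1 differed by 0.83 (SE 0.45, adjusted p = 0.907; 0.39 without syngeneic 2). Of 9 tested genes listed for the glucocorticoid and IL-4 pathways that induce Il1r2, 7 were lower and 2 higher, and their median was -0.36. Il13, Il13ra1, Il13ra2, Retnla and Alox15 of that list were below the filter, so the count covers mainly the glucocorticoid pathway. Ddit4, a glucocorticoid-induced inhibitor of mTOR signalling, differed by 1.84 (SE 0.59, adjusted p = 0.828), and by 0.99 without syngeneic 2, where it was at background. Sgk1, a glucocorticoid-induced kinase, differed by -1.71 (SE 0.84, adjusted p = 0.907), and by -0.70 without syngeneic 2.

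Because Il1r2 is a neutrophil gene, the neutrophil list was set beside it. Of 17 other tested markers, 11 were lower and 6 higher in tolerant cells, and their median was -0.53 (-0.77 without syngeneic 2 and -0.22 without syngeneic 1). With limma 0 passed and 5 had an unadjusted p under 0.05, all lower, beside 5.37% of all tested probes (3.38% lower). S100a8, a subunit of calprotectin, was at 16.54, 15.20 and 16.01 in tolerant samples, and at 17.92 and 19.59 in syngeneic samples (difference -2.84, SE 0.67, adjusted p = 0.551). Its partner S100a9 was at 16.23, 9.25 and 14.06 in tolerant samples, and at 19.11 and 20.51 in syngeneic samples (difference -6.63, SE 1.93, adjusted p = 0.766), with tolerant 2 at background. Both had the sample order of Il1b and Il1r2. The granule protein Pglyrp1 was at 10.51, 10.80 and 10.57 in tolerant samples, and at 13.52 and 15.34 in syngeneic samples (difference -3.80, SE 0.61, adjusted p = 0.257), with only tolerant 2 of the tolerant samples above background. In all, 7 of the 17 had every tolerant sample below both syngeneic samples and 2 had every one above, beside 10.4% and 9.74% of all probes. The other 4 below were Alox5, Mmp8, Mmp9 and Fcgr3a and the 2 above were Lyz2 and Ncf1; they are named after their values were seen, Mmp9 being also in the target list. The summed signal of 24 markers was 1130000 to 2060000 in tolerant samples and 1740000 to 3050000 in syngeneic samples, which overlap. That sum rests on few genes. Without Lyz2, which the monocyte list also holds, it was 172000 to 305000 in tolerant samples and 998000 to 2430000 in syngeneic samples, without overlap. Without Lyz2, S100a8 and S100a9 it was 133000 to 169000 in tolerant samples and 151000 to 183000 in syngeneic samples, which overlap. Both sums were added after the data were seen. Of the 24 markers, 8, among them Lcn2, Np4 and Defa5, were at background on every array.

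Of 15 tested monocyte and macrophage markers, 3 had lower and 12 higher means in tolerant cells, and their median was 0.49 (0.27 without syngeneic 2 and 1.09 without syngeneic 1). None passed the threshold (limma), and 0 had an unadjusted p under 0.05, beside 5.37% of all tested probes. Their summed signal over 16 genes was 2600000 to 3370000 in tolerant samples and 1370000 to 2210000 in syngeneic samples, without overlap. Without Lyz2 it was 1360000 to 1910000 in tolerant samples and 749000 to 1470000 in syngeneic samples, which overlap. Apoe and C1qc were at background throughout. For Cd14 the difference was 1.22 (SE 0.51, adjusted p = 0.907), which became 0.59 without syngeneic 2. For Nr4a1, a nuclear receptor of patrolling monocytes, it was 2.42 (SE 1.10, adjusted p = 0.907), which became 0.50 without syngeneic 2.

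Markers of other blood cells were read in the same way, and only NK and T cell markers had members past the threshold. The summed signal of 18 natural killer (NK) cell markers was 12500 to 17700 in tolerant samples and 243000 to 258000 in syngeneic samples. Of 14 tested, all were lower, and 3 fell: the receptors Klrd1 (at least 16.5-fold, adjusted p = 0.0362) and Klre1 (at least 6.80-fold, adjusted p = 0.0398) and the protease Gzmk (at least 31.3-fold, adjusted p = 0.0398). All 3 were at background in every tolerant sample. Klrh1, Ncr1 and Ncr3 were at background on all arrays. Of 15 T cell markers 12 were lower and Cd5 fell (at least 9.08-fold, adjusted p = 0.0398), while Lat was at least 13.7-fold lower (adjusted p = 0.132). Both were at background in every tolerant sample. Over all tested probes, 6 of 13428 passed (0.0447%), and 49.7% were lower by any amount. No probe passed once any sample other than syngeneic 1 was left out. Summed over 16 genes, the T cell signal was 21300 to 28800 in tolerant samples and 150000 to 164000 in syngeneic samples, with Cd6, Icos and Zap70 at background on all arrays. The 6 erythroid markers summed to 2860 to 5650 in tolerant samples, and to 49200 and 2340000 in syngeneic samples 1 and 2, nearly all of it from Hbb and Hbb-b1, while Alas2, Epor and Gata1 were at background. Platelet markers summed to 1900 to 2360 in tolerant samples and 2830 to 11700 in syngeneic samples (5 genes; Gp5, Itgb3 and Selp at background). Markers of basophils, eosinophils and mast cells summed to 6040 to 7550 in tolerant samples and 7780 to 19700 in syngeneic samples (14 genes, 10 of them at background on all arrays). Sums over 3 B cell markers were 47500 to 214000 in tolerant samples and 19700 to 38900 in syngeneic samples. Cd79b differed by 2.75 (adjusted p = 0.865), and Fcer2, at background in both syngeneic samples, was at least 1.65-fold higher (adjusted p = 0.78). None of the erythroid, platelet, basophil, eosinophil, mast or B cell markers passed (limma). An unadjusted p under 0.05 (limma) was found for 12 of 14 tested NK cell and 9 of 15 tested T cell markers, all lower. It was also found for 3 of 4 tested erythroid and 1 of 2 platelet markers, all lower. The same held for 1 of 4 basophil, eosinophil and mast cell markers, lower, and 2 of 3 B cell markers, higher. Over all tested probes that share was 5.37%, with 3.38% lower and 1.99% higher. The part of these cells in the levels of Il1b and Il1r2 was not tested.

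**Figure D4:**
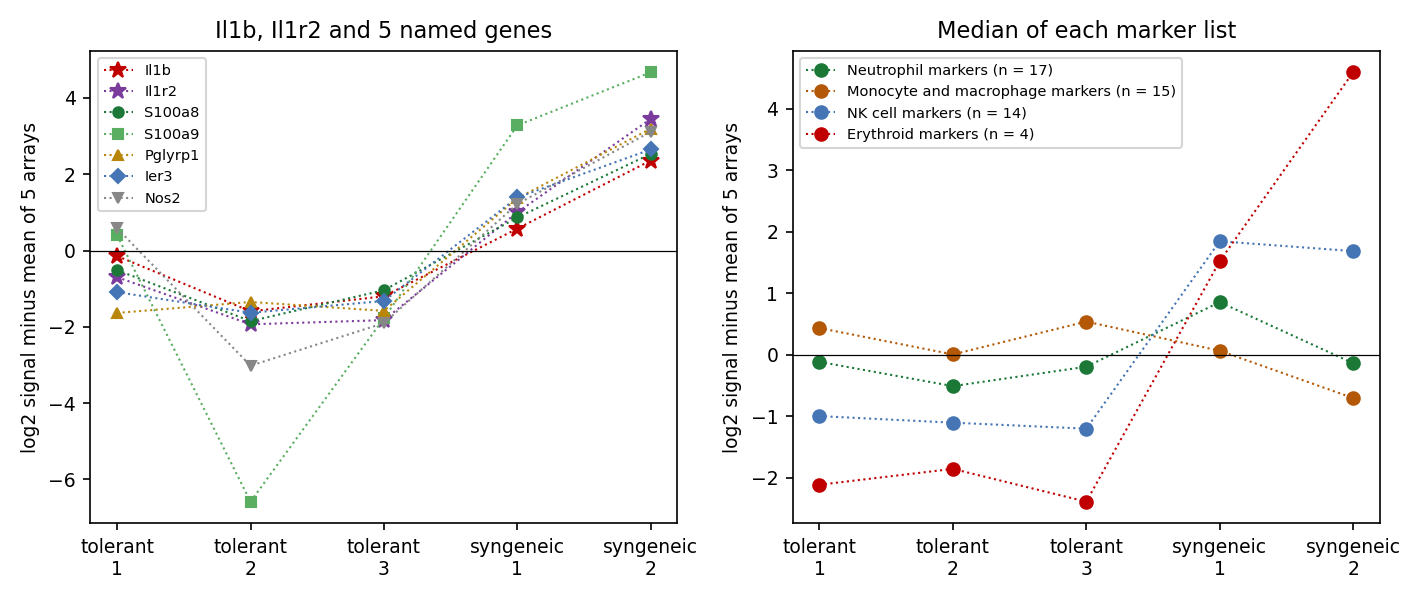
Log2 signal minus the mean of the 5 arrays (vertical axis) on each array (horizontal axis). Left, Il1b, Il1r2 and 5 selected genes (S100a8, S100a9, Pglyrp1, Ier3 and Nos2), all highest on syngeneic 2. S100a8, S100a9 and Pglyrp1 come from the neutrophil list, in which Itgam, Cybb and Gsr, not drawn, were lowest on syngeneic 2. Right, the median of the tested genes in 4 marker lists; the NK and erythroid medians lie above 0 only on the syngeneic arrays, while the neutrophil median is 0.86 on syngeneic 1 and -0.14 on syngeneic 2, unlike Il1b and Il1r2.

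The genes whose pattern was most like that of each member were sought among 2777 named genes that were tested and above background on at least 1 array, by Pearson's r over the 5 samples. For Il1b these were Or2av10 (r = 0.999), Supv3l1 (0.995), Tbxa2r (0.994), Nudt4 (0.991) and Fmo5 (0.990). For Il1r2 they were Birc2 (0.997), Il22ra2 (0.996), Or2av10 (0.995), Nrgn (0.993) and Nudt4 (0.992). Il22ra2 is itself a decoy receptor, for IL-22. It was at background in all tolerant samples and at 10.86 and 12.44 in syngeneic samples, at least 1.71-fold lower in tolerant cells. That bound rests on syngeneic 2, since syngeneic 1 barely exceeded its own background of 10.73 and lay below that of tolerant 1 (11.20). Birc2, an inhibitor of apoptosis, kept the same order of samples within a narrow range, at 13.07, 12.95 and 12.99 in tolerant samples and at 13.31 and 13.62 in syngeneic samples. Or2av10 is an olfactory receptor that exceeded background on 1 array, at 11.58 on syngeneic 2, and it headed the list for Il1b, so a high r over 5 samples separates genes poorly. Against these, Il1r2 ranked 5 for Il1b and Il1b ranked 8 for Il1r2. In all, 42 of the 2777 genes had exactly the sample order of the pair.

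The genes that neighbour Il1b and Il1r2 on the chromosome were taken from the RefSeq table of GRCr8. Most were at background on all arrays, so they could show no pattern. Within 8 protein-coding genes on either side of Il1b on chromosome 3, 6 have a named probe. None had every tolerant sample below both syngeneic samples, beside 10.4% of all tested probes, so little can be read from 6 genes. Ttl had every tolerant sample above, at background signals. Il1a, next to Il1b, and Ttl, Polr1b and Pdyn were at background on all arrays, and Slc20a1 exceeded it on 1 syngeneic array. Sirpa, an inhibitory receptor of myeloid cells that lies 2 genes away, was above background throughout, at 13.82, 12.80 and 13.46 in tolerant samples, and at 12.86 and 11.03 in syngeneic samples, a difference of 1.41 (SE 0.66, adjusted p = 0.907; 0.50 without syngeneic 2). Near Il1r2 on chromosome 9, none of 6 neighbours with a named probe had every tolerant sample below both syngeneic samples either. Il18rap and Slc9a2 had every one above, at background signals. The ribosomal protein gene Rpl31 alone was above background, at 19.50, 19.75 and 19.87 in tolerant samples and 19.69 and 20.07 in syngeneic samples. Il1r1, Il1rl2 and Il18rap, which lie in the same cluster of receptor genes as Il1r2, were at background in every sample.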

How the data were processed

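Per the labels' protocols, RNA of 5 samples was read on Applied Biosystems rat genome survey arrays, which carry 60-mer probes and give 1 chemiluminescent signal. The authors deposited a table of probe intensity on a linear scale, in which 1 of 26857 probes has a missing signal, and log2 values that they had quantile normalised; these differ by at most 0.000102 from a renewed quantile normalization of the intensities. No source used here gives the scanner software, a background correction or detection flags. The deposited log2 values were used, floored at their 10th percentile (8.29), and probes with a mean at or above the median were tested with limma (version 3.58.1, R version 4.3.3, prior df of 3.19) with Benjamini-Hochberg adjustment over all 13428. Members are described without a test. Differences are tolerant minus syngeneic, and adjusted p-values come from limma. The number of arrays limits the precision. Batches could not be tested, since no batch label was used.

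The members, the gene lists and the background level were chosen with earlier results of these data known. GEO's platform annotation, which can be old, names the probes: 6104 carry 1 symbol (6081 matched RefSeq by Entrez identifier), 70 have several and 20682 of those with a signal on every array have none. Where several probes name 1 gene, the brightest stands for it. Named were the members; tested ligand, receptor and inflammasome genes above background on at least 1 array; the 2 smallest p-values, and any past the threshold, of each other list, although some marker genes are given only in sums; for each member the 5 most alike genes; and always Il1a, Il1r1, Il1rap, Casp1, S100a8, S100a9, Gapdh and Actb. Genes named outside this rule are Cebpb, Spi1, Itgam, Sirpa, other neighbours and the remaining neutrophil markers. So are genes named only as at background, above it or below the filter, such as Il6, Tnf, Ptgs2, Ccl3, Ccr2 and Il1rapl1. The limma step was tested on simulated data. Alternatives covered normalization, floor, filter, variance moderation, background percentile, replicate block and leaving out each sample.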

Additional observations from a re-analysis of the deposited data

How the results depend on the processing

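The differences of Il1b and Il1r2 kept their sign under all alternatives tried. Leaving out 1 sample, the replicate block and the changes of floor could not turn it, because the groups did not overlap. Only median scaling and the omission of normalization could have done so. Leaving out 1 sample in turn gave -3.34 to -1.55 for Il1b and -4.94 to -2.49 for Il1r2, and 1.54-fold to 8.44-fold for the bound of Il1r2, which was 2.13-fold with background at the 99th percentile. Where 1 syngeneic sample was left out, the lone one was assumed to vary like the tolerant ones. The count of 6 probes past the threshold was 53 under median scaling, 81 (80 lower, 1 higher) without normalization, 21 with trended variances, 0 without a filter (1759 unadjusted), and 0 to 76 when 1 sample was left out (76 without syngeneic 1, 42 of them higher, and 0 without any other, with 518 to 704 at an unadjusted p under 0.05). With the replicate block the differences were -2.34 for Il1b and -3.54 for Il1r2, and 0 probes passed (474 with an unadjusted p under 0.05), with tolerant 3 alone in its block; the numbers 1 and 2 mark no shared animal or day, and deviations of same-numbered samples correlated at -0.10 and 0.01. The count of IL-1 genes, 0, was 1 under median scaling (Ier3), 2 without normalization (Ier3 and Nos2), and 0 to 1 when 1 sample was left out (Txnip without syngeneic 1). Without syngeneic 2, only 1 of the 10 pairings of a member with a most alike gene was named again. Signs turned for genes that had not passed. Without normalization the differences were -0.32 for Casp4, -0.10 for Ctsb, -0.47 for Gapdh, -0.28 for Il18bp and -0.0094 for Cebpb, and under median scaling -0.11 for Casp4, -0.26 for Gapdh and -0.0656 for Il18bp. Gapdh was -0.0255 with the replicate block. Leaving out 1 sample gave -0.0073 to 1.28 for Actb, -0.58 to 2.56 for Casp1, -0.28 to 2.08 for Casp8, -0.048 to 0.28 for Gapdh, -0.94 to 0.20 for Il18, -0.86 to 1.08 for Il18bp, -0.0008 to 1.32 for Mefv, -0.79 to 0.37 for Panx1, -0.16 to 3.86 for Spi1 and -0.42 to 4.29 for Txnip. Causes were not tested. Signal over background limits Il1r2, which has only a bound.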
